A study of Mus musculus with 12 samples.

Results

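The genes described here are 5 tubulin folding cofactors (Tbca, Tbcb, Tbcc, Tbcd and Tbce) and 5 tubulins (Tuba1a, Tuba1b, Tuba1c, Tubb2a and Tubb5), taken by name from a table of 39248 rows. They are 10 of those rows, 1 row for each name, and all 10 passed the filter of a mean of at least 1 FPKM that left 14706 rows for testing. FPKM counts fragments per kilobase of transcript, scaled to all mapped fragments, so it is a level per length. Levels of different genes can be set side by side only roughly. Tbcd was chosen by its measured FPKM, for its large fall in this same comparison, so its values are a description and carry no test. The other 9 genes were chosen for their function, with results of these data already known.

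The samples were 3T3-L1 adipocytes, an established mouse line of preadipocytes that turns into fat-storing cells in culture. All samples were electroporated 2 days after differentiation with 0.75 nmol of siRNA. The control arm received a control siRNA (6 libraries). The knockdown arm received siRNA against Zfp407, a zinc finger gene (3 libraries with each of 2 siRNAs, 6 in all). The columns of the table do not show which siRNA a knockdown library received, so the knockdown libraries were used as 1 arm. The sample titles do not say whether each library had its own electroporation. All libraries came from this 1 cell line, so the p-values below measure the spread between its libraries. In the knockdown arm that spread also holds any difference between the 2 siRNAs.

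Microtubules are built from dimers of 1 alpha and 1 beta tubulin. A new tubulin chain is passed by prefoldin to the ring-shaped chaperonin CCT, and the folding cofactors then assemble the dimer: TBCB and TBCE hold alpha tubulin, TBCA and TBCD hold beta tubulin, and TBCC joins them and triggers GTP hydrolysis, which releases the finished dimer. The small GTPase ARL2 binds TBCD and TBCE. In fat cells, microtubules serve as tracks for vesicles that carry the glucose transporter GLUT4, and tubulin synthesis is known to fall when 3T3-L1 preadipocytes become adipocytes.

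Tubulin mRNA also reads out the tubulin pool. The first residues of a new tubulin chain are recognised by TTC5, which starts decay of the mRNA being translated when free tubulin dimers are in excess. The sequences below are shown because this signal lies in the first codons, and because they show how alike the alpha rows are. Each is the first 30 coding bases, 5′ to 3′, from the GENCODE M21 transcripts of GRCm38, with the 12 bases of the 4 opening codons in capitals.
Tuba1a: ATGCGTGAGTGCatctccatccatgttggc
Tuba1b: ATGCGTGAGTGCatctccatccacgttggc
Tuba1c: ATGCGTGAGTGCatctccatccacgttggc
Tuba4a: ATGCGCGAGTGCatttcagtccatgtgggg
Tubb2a: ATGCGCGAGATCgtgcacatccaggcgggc
Tubb5: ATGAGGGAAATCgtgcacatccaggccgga
Tubb4b: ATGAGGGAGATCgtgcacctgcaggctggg

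Tuba1a, Tuba1b and Tuba1c shared all 12 opening bases, and Tuba1b and Tuba1c were the same over all 30. Tuba1a differed from each of them at 1 of the 30 bases. Tubb2a and Tubb5 differed from each other at 3 of the 12 opening bases and at 5 of the 30. Over the whole coding sequence, Tuba1a and Tuba1b were 98.3% identical (23 differences), Tuba1b and Tuba1c 97.9% and Tuba1a and Tuba1c 97.1%. Of the 50-base windows of the Tuba1b transcript, 59.3% also stood in Tuba1c. Reads from such windows fit more than 1 gene and the authors' estimate had to divide them, so the separate levels of Tuba1a, Tuba1b and Tuba1c are uncertain. Tubb5 and Tubb2a were 84.6% identical and shared almost no window, but Tubb2a and its neighbour Tubb2b were 96.5% identical, and 45.6% of Tubb2a windows stood in Tubb2b.

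In control cells the levels ran from 193 FPKM for Tuba1b to 6.27 FPKM for Tbcc. Tuba1b, Tbca, Tuba1a (190.4 FPKM) and Tubb5 (171 FPKM) made up the top of the order, and the control ranges of neighbours among these 4 genes overlapped. Below them, Tuba1c (77.7 FPKM), Tbcb (35.1), Tbcd (21.7), Tbce (16.6), Tubb2a (10.9) and Tbcc followed, and each control range lay clear of the next. The cofactors were thus spread over the whole order: Tbca stood at the level of the main tubulins, and Tbcc stood below every tubulin of the set.

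**Figure D1:**
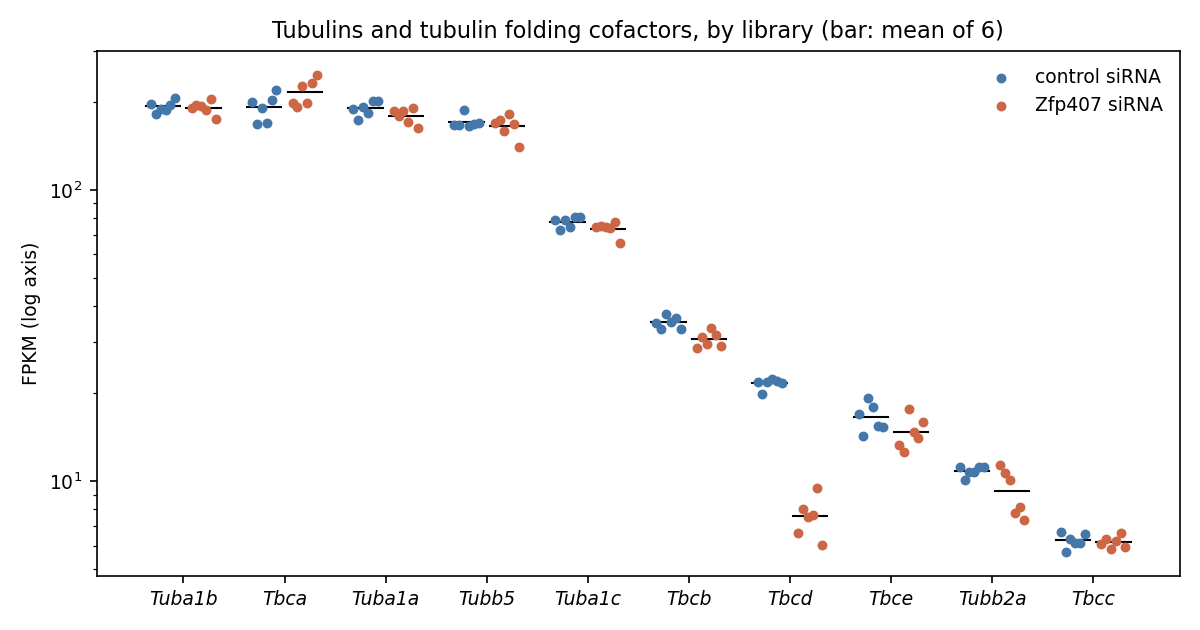
FPKM of the 10 genes in each library (log axis), with control siRNA in blue, Zfp407 siRNA in orange and a bar at the mean of 6 libraries. Genes are ordered by control level, from 193 FPKM for Tuba1b to 6.27 FPKM for Tbcc, and Tbcd is the gene whose arms lie clear of each other.

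Tbcd (XLOC_004959) encodes the cofactor that holds beta tubulin and, with TBCE and ARL2, forms the core on which dimers are made and taken apart. The annotated gene lies on the forward strand of chromosome 11, from 121451949 to 121617164 on GRCm38, with 39 exons in a transcript of 3906 bases, of which 3588 are coding. Its level was 21.8, 19.9, 21.99, 22.5, 22.1 and 21.7 FPKM in control libraries 1 to 6, and 6.64, 8.04, 7.56, 7.65, 9.51 and 6.05 FPKM in knockdown libraries 1 to 6. The highest knockdown library lay below the lowest control library, so the arms did not overlap. The mean was 21.7 ± 0.907 FPKM (SD, n = 6) in control and 7.58 ± 1.2 FPKM (SD, n = 6) in knockdown cells, which is 65.0% lower and a 2.86-fold difference.

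On the log2(FPKM + 1) scale used for all fold changes here, Tbcd differed by -1.41 (SE 0.08). Counting Tbcd itself, 52 of the 14706 rows had a log2 fold change that low or lower. Because the gene was chosen for this fall, the value describes it and was not tested. In the authors' deposited table, which rests on the same libraries, the log2 fold change of Tbcd was -1.52. These are values of RNA in bulk culture, in which fewer cells of a type and less RNA per cell cannot be told apart.

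The table's locus for Tbcd runs to 121673153 and holds 3 rows, Tbcd, B3gntl1 and Zfp750. Zfp750 lies within Tbcd on the other strand, and its mean was 0 FPKM in control and 0.00426 FPKM in knockdown libraries. B3gntl1, a glycosyltransferase-like gene on the reverse strand, overlaps the 3′ end of Tbcd by 968 bases. Its level was 5.46 ± 0.26 FPKM (SD, n = 6) in control and 4.60 ± 0.338 FPKM (SD, n = 6) in knockdown cells, a log2 fold change of -0.21 (SE 0.05, limma adjusted p = 0.00483). The sources used here do not say whether the libraries keep strand, so reads from the 968 shared bases cannot be told apart. The fall of the neighbour was much smaller than that of Tbcd, on both scales.

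Of all 14706 rows tested, 36.4% passed limma's adjusted p threshold of 0.05, 24.8% lower and 11.6% higher in knockdown cells. Against a minimum fold of 1.2, 5.82% passed. The arms did not overlap in 19.5% of rows. Centring each library on its median changed the share of calls that were lower from 68.1% to 57.7%, and the median log2 fold change of all rows from -0.05 to -0.02.

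Among the 9 genes other than Tbcd, 1 fell (Tbcb), 0 rose and 8 did not pass. An unadjusted limma p under 0.05 was reached by 2 of them. Of all rows tested, at least 36.4% reached it, because each row past the adjusted threshold also has an unadjusted p under 0.05. Limma's test against a minimum fold of 1.2 passed 0 of the 9, beside 5.82% of all rows. In all 9 the arms overlapped. Their median log2 fold change was -0.08, beside -0.05 for all rows tested, and the median size was 0.09, beside 0.15. The largest size among them was 0.23, in Tubb2a, which 4932 of the 14706 rows exceeded. The authors' deposited table marks none of these 9 genes as significant, Tbcb included (q-value 0.99999). It marks 302 of all 39248 rows. No other cofactor or tubulin of the set had a fall near that of Tbcd in size, and this difference between the genes was not tested because Tbcd was chosen for it.

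One limit applies to every one of these 9 genes, and equally to the other genes named below. In rows of low level, the FPKM that 1 read is worth was not the same in both arms: log2 values differed by over 0.02 in 303 of 877 such rows (34.5%), with a 90th percentile of 0.25. Between control libraries with odd and with even numbers, 5 of 409 rows differed. Such a term of the authors' estimate is shared by all libraries of an arm. Whether it is present in the 9 genes, or in the other genes named below, was not tested. Changes of the size seen in the 9 genes cannot be told apart from it, in these or in other genes.

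**Figure D2:**
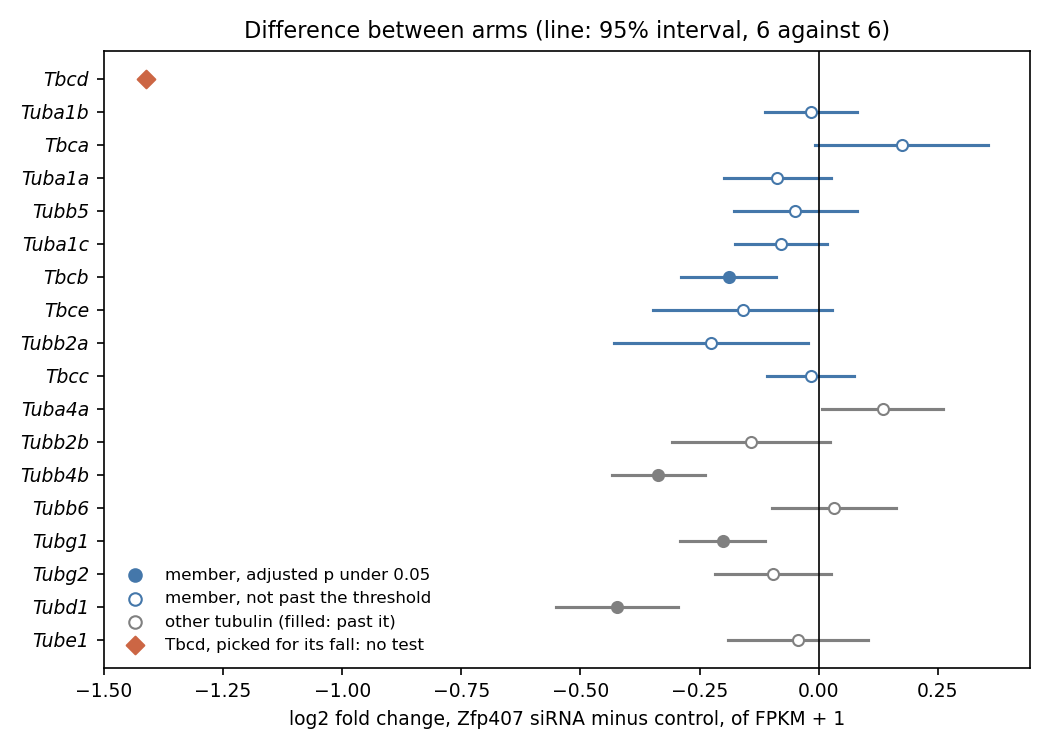
Log2 fold change of FPKM + 1, Zfp407 siRNA minus control, for the 10 genes and 8 other tubulins that could be tested (6 libraries against 6, lines are 95% intervals, filled points passed limma's adjusted p threshold of 0.05). Tbcd stands at -1.41 without a test, and all other points lie between -0.42 and 0.17.

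Tbcb, which binds alpha tubulin through the end of its chain and works with TBCE, was the 1 cofactor among the other 4 that passed. Its annotated gene lies on the reverse strand of chromosome 7, from 30224131 to 30232272. The level was 34.9, 33.2, 37.6, 35.3, 36.2 and 33.2 FPKM in control libraries 1 to 6 and 28.7, 31.2, 29.5, 33.6, 31.8 and 29.1 FPKM in knockdown libraries 1 to 6. In 5 of 6 knockdown libraries Tbcb lay below the lowest control library, and knockdown library 4 lay within the control range. The mean went from 35.1 ± 1.71 to 30.6 ± 1.87 FPKM (SD, n = 6 each), 12.6% lower, with a log2 fold change of -0.19 (SE 0.05, 95% interval -0.29 to -0.09, limma adjusted p = 0.00688). A two-sided exact permutation test over the 12 libraries gave p = 0.00649.

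The call for Tbcb held in 19 of 20 alternative analyses and was lost against a minimum fold of 1.2. Its locus also holds Polr2i, a subunit gene of RNA polymerase II, which rose from 38.2 ± 2.20 to 44.5 ± 2.38 FPKM (SD, n = 6 each), a log2 fold change of 0.21 (limma adjusted p = 0.00392). Whether the rows share reads was not tested.

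Tbca, the small cofactor that receives beta tubulin from the chaperonin, was the 1 gene of the 9 with a positive fold change. It lies on chromosome 13, from 94788910 to 94842922. Its level was 199.6, 168, 191, 169, 203 and 219 FPKM in control libraries 1 to 6 and 198, 193, 228, 199, 232 and 249 FPKM in knockdown libraries 1 to 6. All 6 knockdown libraries lay above the control mean and 3 lay above the highest control library, while the ranges overlapped. The log2 fold change was 0.17 (SE 0.08, 95% interval -0.01 to 0.35), with a limma adjusted p of 0.123 and an exact permutation p of 0.0714. It passed under quantile normalization (limma adjusted p = 0.0172), and over the alternatives other than the minimum fold its limma adjusted p ran from 0.0151 to 0.235.

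Tbcc, which makes the tubulin in the complex hydrolyse its GTP, is a gene of 1 exon on chromosome 17 (46890684 to 46891847). It ranged from 5.72 to 6.68 FPKM (median 6.25) in control and from 5.84 to 6.65 FPKM (median 6.17) in knockdown libraries, so the knockdown range lay inside the control range. Its log2 fold change was -0.02 (95% interval -0.11 to 0.07, limma adjusted p = 0.781), and the sign turned when libraries were centred on their median (0.02) or quantile normalized (0.00).

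Tbce, which holds alpha tubulin and whose human gene is known for a neonatal disorder of bone and parathyroid, lies on the reverse strand of chromosome 13 (13997949 to 14039638). It ranged from 14.3 to 19.3 FPKM (median 16.2) in control and from 12.6 to 17.6 FPKM (median 14.4) in knockdown libraries. The ranges overlapped widely, with 3 knockdown libraries below the lowest control. This amounts to a log2 fold change of -0.16 (SE 0.09), with a limma adjusted p of 0.171. B3galnt2, a glycosyltransferase gene at the same locus, fell from 6.07 ± 0.344 to 5.01 ± 0.139 FPKM (SD, n = 6 each), a log2 fold change of -0.23 (limma adjusted p = 0.000624).

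None of the 5 tubulins of the set passed. Tuba1a, Tuba1b and Tuba1c lie near each other on chromosome 15, between 98931425 and 99038110. Tuba1b ranged from 182 to 207 FPKM (median 193) in control and from 174 to 205 FPKM (median 192) in knockdown libraries. The ranges overlapped, with knockdown library 6 below the lowest control, and the log2 fold change was -0.02 (95% interval -0.11 to 0.08, limma adjusted p = 0.805).

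Tuba1a ranged from 173 to 202 FPKM (median 191) in control and from 163 to 190.3 FPKM (median 183) in knockdown libraries. The mean of the control arm exceeded all 6 knockdown values, and 2 of these were under the lowest control. The log2 fold change was -0.09 (95% interval -0.20 to 0.03, limma adjusted p = 0.216). Tuba1c ranged from 72.6 to 80.8 FPKM in control and from 65.7 to 77.4 FPKM in knockdown libraries, with a log2 fold change of -0.08 (95% interval -0.18 to 0.02, limma adjusted p = 0.191). For each of these 3 alpha tubulins, the interval holds 0 and does not reach below -0.20. It covers the spread between libraries only, not a term shared by all libraries of an arm or the division of shared reads.

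Tubb5, on chromosome 17 from 35833921 to 35838306, was the main beta tubulin. It ranged from 166 to 188 FPKM (median 168) in control and from 141 to 182 FPKM (median 169) in knockdown libraries. The lowest and the highest library of the knockdown arm, libraries 6 and 4, lay far apart, and the other 4 lay between 159.7 and 174 FPKM. The log2 fold change was -0.05 (95% interval -0.18 to 0.08, limma adjusted p = 0.551). The authors' deposited table marks its own test of Tubb5 as failed.

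Tubb2a, a beta isotype best known from neurons, lies on the reverse strand of chromosome 13 from 34074274 to 34078007. Its level was 11.2, 10.1, 10.8, 10.7, 11.2 and 11.2 FPKM in control libraries 1 to 6 and 11.4, 10.7, 10.1, 7.76, 8.14 and 7.38 FPKM in knockdown libraries 1 to 6. Knockdown libraries 4, 5 and 6 lay below every control library, while libraries 2 and 3 lay within the control range and library 1 above it. The coefficient of variation was 4.07% in control and 18.2% in knockdown libraries. The columns do not name the siRNA, so no group was made of these libraries.

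The log2 fold change of Tubb2a over the whole arm was -0.23 (SE 0.09, 95% interval -0.43 to -0.02, limma adjusted p = 0.0775), and an exact permutation test gave p = 0.0736. It passed without knockdown library 1 (limma adjusted p = 0.0249) or without knockdown library 2 (0.0447), and over the alternatives other than the minimum fold its limma adjusted p ran from 0.0249 to 0.154. Tubb2b, next to it on the chromosome, read 1.85, 1.72, 1.62, 1.30, 1.36 and 1.16 FPKM in knockdown libraries 1 to 6, and from 1.58 to 2.06 FPKM in control libraries. It too lay below every control in knockdown libraries 4, 5 and 6. Its log2 fold change was -0.14 (limma adjusted p = 0.169), and part of the reads of both genes cannot be assigned to 1 of them.

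**Figure D3:**
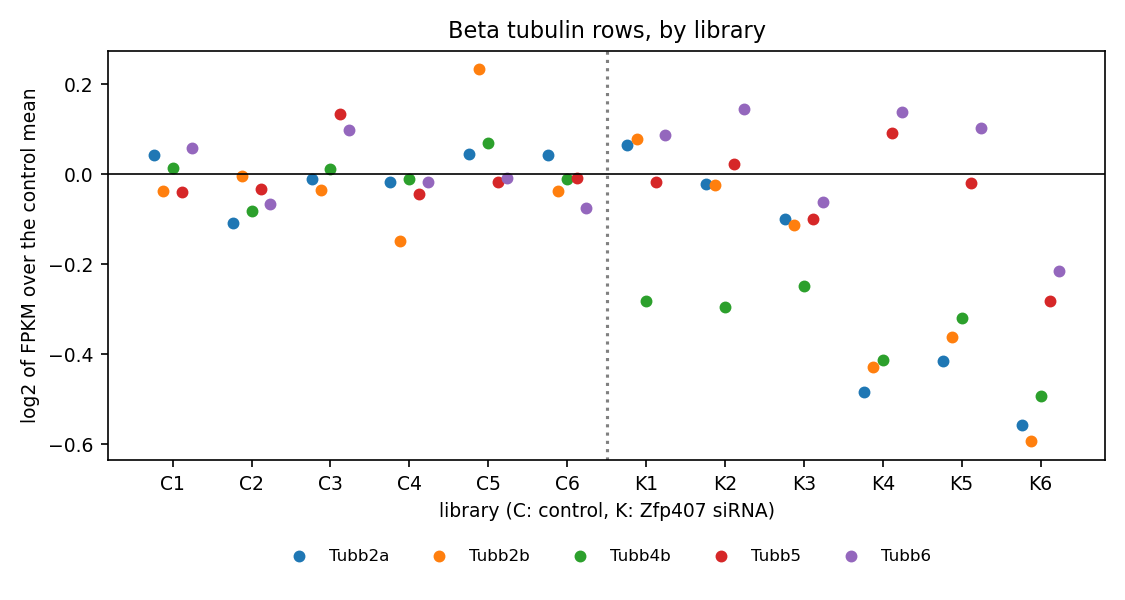
Log2 of FPKM over the control mean for 5 beta tubulin rows, by library (C control, K Zfp407 siRNA, 6 of each). Tubb2a and Tubb2b lie near 0 in K1 to K3 and low in K4 to K6 (7.38 to 8.14 FPKM for Tubb2a), while Tubb4b is below every control in all 6 knockdown libraries (65.4 to 77.5 FPKM).

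Of the tubulins outside the set, 14 of 17 names looked up stood in the table, and 8 passed the filter. Of these 8, 3 fell, 0 rose and 5 did not pass (37.5% called, beside 36.4% of all rows), with a median log2 fold change of -0.12 beside -0.05 for all rows. Tubb4b, the second beta tubulin of these cells and a main isotype of cilia, read 93.0, 87.1, 92.8, 91.4, 96.6 and 91.4 FPKM in control libraries and 75.7, 75.1, 77.5, 69.2, 73.8 and 65.4 FPKM in knockdown libraries. Its arms did not overlap. The mean went from 92.1 ± 3.11 to 72.8 ± 4.59 FPKM (SD, n = 6 each), a log2 fold change of -0.34 (SE 0.05, limma adjusted p = 0.000134). This fall was larger than that of any tubulin of the set, and it missed the threshold of the minimum fold test (limma adjusted p = 0.509). In the authors' deposited table its q-value was 0.274.

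Tubd1, the delta tubulin of centrioles, went from 6.52 ± 0.608 to 4.60 ± 0.321 FPKM (SD, n = 6 each), a log2 fold change of -0.42 (limma adjusted p = 0.000181), and Tubg1, the gamma tubulin that starts microtubules, from 24.9 ± 0.896 to 21.6 ± 1.2 FPKM, a log2 fold change of -0.20 (limma adjusted p = 0.00219). Neither had overlapping arms, and neither passed against the minimum fold. In the authors' deposited table the q-value of Tubd1 was 0.881. Tubb6 read 15.1 ± 0.727 and 15.5 ± 1.48 FPKM (SD, n = 6 each), and Tuba4a, the alpha isotype with its own coding sequence 84.8% identical to Tuba1a, read 1.70 ± 0.107 and 1.97 ± 0.217 FPKM. Tuba4a missed the threshold (log2 fold change 0.13, limma adjusted p = 0.0905) and passed it when libraries were centred on their median. Tuba3a, Tuba3b, Tuba8, Tubal3, Tubb1 and Tubb4a stayed below the filter, and Tubb1, the platelet isotype, is listed at 0 in every library.

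The make-up of the beta tubulin mRNA followed from these levels and is given as a description. The summed FPKM of 5 beta rows (Tubb5, Tubb4b, Tubb6, Tubb2a and Tubb2b) went from 291 ± 10.1 in the control arm to 265 ± 19.0 in the knockdown arm (SD, n = 6 each), and every knockdown sum (228 to 278) lay below every control sum (280.4 to 309). Tubb4b made up 31.7% ± 1.02 of the beta sum in the control arm and 27.5% ± 1.54 in the knockdown arm (SD, n = 6 each), again without overlap. The share of Tubb5 was 58.8% ± 1.21 and 62.5% ± 1.76, and that of Tubb6 5.20% ± 0.166 and 5.86% ± 0.217 (SD, n = 6 each). Shares of 1 sum must move against each other, so the higher shares of Tubb5 and Tubb6 do not by themselves show a rise in their own levels. Neither gene passed limma's adjusted p threshold.

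The summed FPKM of 4 alpha rows went from 463 ± 22.3 in the control arm to 446 ± 23.8 in the knockdown arm (SD, n = 6 each), and the ranges overlapped. Tuba1b and Tuba1a were close to equal in control libraries, at 41.7% ± 0.721 and 41.1% ± 0.675 of the alpha sum, and stood at 42.9% ± 0.462 and 40.2% ± 0.639 in the knockdown arm (SD, n = 6 each). Tuba1c held 16.8% and 16.5%, and Tuba4a less than 1% in every library. The ratio of the alpha to the beta sum was 1.59 ± 0.074 in the control arm and 1.69 ± 0.084 in the knockdown arm (SD, n = 6 each), with overlapping ranges.

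**Figure D4:**
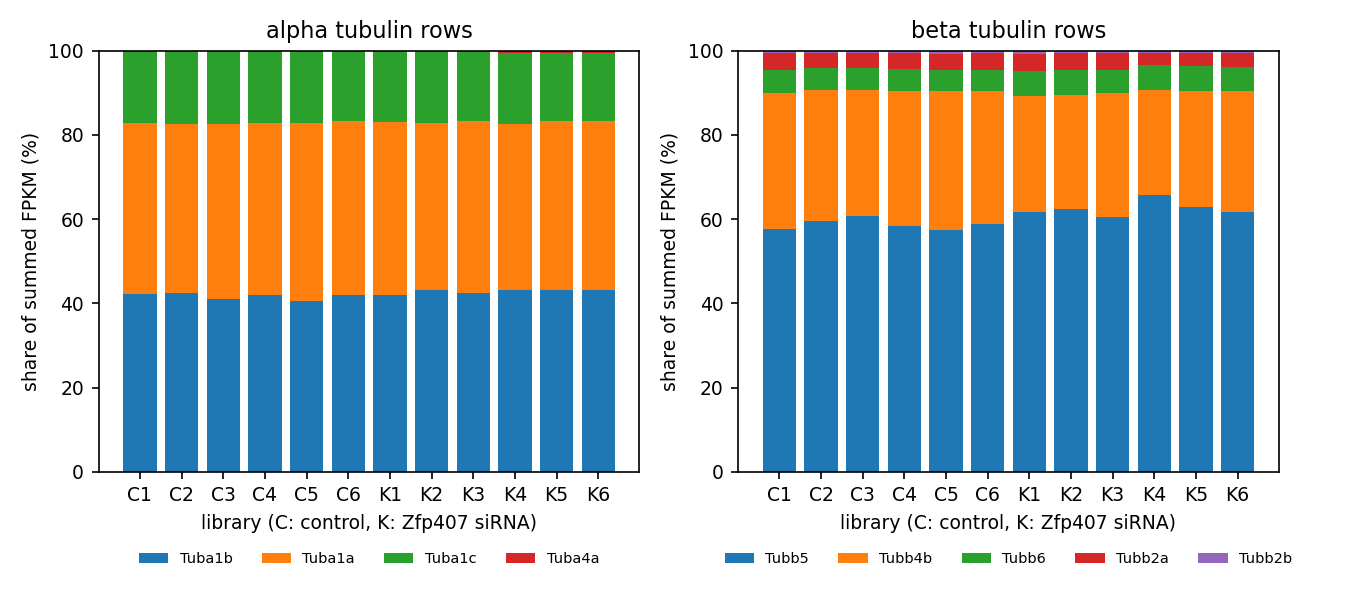
Share of each isotype in the summed FPKM of alpha tubulin rows (left) and beta tubulin rows (right), in percent, for the 6 control (C) and 6 Zfp407 siRNA (K) libraries. The Tubb4b share runs from 30.02% to 32.9% in control and from 25.0% to 29.4% in knockdown libraries, while the alpha shares differ little.

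Among genes that work with the cofactors or resemble them, listed here as cofactor relatives and their GTPases, 5 of 6 genes tested fell and 0 rose, beside 24.8% lower and 11.6% higher of all rows, with a median log2 fold change of -0.21. None of the 5 passed against a minimum fold of 1.2. Arl2, the GTPase bound by TBCD, went from 49.8 ± 2.11 to 38.4 ± 3.06 FPKM (SD, n = 6 each), 22.9% lower without overlap, a log2 fold change of -0.37 (SE 0.05, limma adjusted p = 0.000189). Its binding partner Arl2bp fell by 0.23 on the log2 scale (limma adjusted p = 0.00366), and Arl3, a related GTPase, fell by 0.18 (0.0185). Rp2h, the row of the GTPase-activating protein of ARL3 that shares a domain with TBCC, fell by 0.41 (limma adjusted p = 0.00357). The TBCE relative Tbcel (-0.15, limma adjusted p = 0.031) lost its call in 10 alternatives besides the minimum fold. The TBCC relative Tbccd1 (0.04, limma adjusted p = 0.475) did not pass.

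Upstream of the cofactors, in the list of CCT subunits, prefoldin subunits and their helpers, 1 of 14 fell, 2 rose and 11 did not pass (21.4% called, beside 36.4% of all rows), with a median log2 fold change of 0.07. The gene that fell was Pdcl, a phosducin-like helper of the chaperonin that serves the folding of G protein beta subunits. It went from 22.5 ± 3.22 to 11.3 ± 1.37 FPKM (SD, n = 6 each), 49.7% lower without overlap, a log2 fold change of -0.93 (SE 0.10, limma adjusted p = 2.83e-05). It was the 1 gene of all 7 lists that passed against a minimum fold of 1.2 (adjusted p = 0.000714). The CCT subunit genes Tcp1 (log2 fold change 0.18, limma adjusted p = 0.0162) and Cct6a (0.17, 0.0366) rose, and Cct6a lost its call in 9 alternatives besides the minimum fold. The number of calls in this list ran from 2 to 7 over the alternatives other than the minimum fold, with 7 under median centring and quantile normalization and 5 without control library 6.

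Of 13 genes tested for enzymes that modify tubulin, 6 fell, 0 rose and 7 did not pass (46.2% called, beside 36.4% of all rows), with a median log2 fold change of -0.23. The number of calls in this list ran from 4 to 7 over the alternatives other than the minimum fold. The polyglutamylases Ttll5 (log2 fold change -0.47, limma adjusted p = 0.00438) and Ttll1 (-0.42, 0.00178) were the lowest. Of 11 genes of the gamma-tubulin ring complex and its anchors, 2 fell and 2 rose (36.4% called, as over all rows), with a median of 0.00. The centrosome and Golgi scaffold Akap9 (-0.45, limma adjusted p = 0.00133) and the ring subunit Tubgcp2 (-0.30, 0.00142) fell, and the ring subunit Tubgcp5 (0.18, 0.00364) and the centrosomal anchor Cdk5rap2 (0.14, 0.0123) rose.

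Of 14 genes tested for microtubule-associated and severing proteins, 5 fell, 0 rose and 9 did not pass (35.7% called, beside 36.4% of all rows), with a median log2 fold change of -0.10. The calls numbered 3 without control library 1, without control library 3, under median centring and under quantile normalization. Mtus1 (-0.28, limma adjusted p = 0.0184) and the plus-end protein gene Mapre2 (-0.27, 0.00287) were the lowest. This list also held Ttc5, the reader of the opening codons, which is singled out here after its values were seen. Its level was 13.7 ± 1.35 FPKM in the control arm and 12.05 ± 0.469 FPKM in the knockdown arm (SD, n = 6 each), a log2 fold change of -0.16 (limma adjusted p = 0.0434), and it lost its call in 13 alternatives besides the minimum fold.

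Among 29 genes tested for kinesins, dynein and dynactin, the motors that move vesicles on microtubules, 14 fell, 2 rose and 13 did not pass (55.2% called, beside 36.4% of all rows), with a median log2 fold change of -0.11. Calls ran from 12 to 16 over the alternatives other than the minimum fold, with 13 under median centring and 12 under quantile normalization. Of all rows, 5453 and 5424 passed under those scalings, beside 5360 in the analysis reported. The dynactin subunit Dctn2 (log2 fold change -0.37, limma adjusted p = 1.66e-05) and the dynein light intermediate chain Dync1li1 (-0.36, 6.08e-05) fell without overlap. The kinesin light chains Klc2 (0.29, limma adjusted p = 0.00573) and Klc4 (0.11, 0.00919) rose. Over all 7 lists, 36 of 95 genes tested fell, 6 rose and 53 did not pass, which is 44.2% called beside 36.4% of all rows. Against a minimum fold of 1.2, 1 of the 95 passed, beside 5.82% of all rows. Of the 42 genes that fell or rose, the authors' deposited table marks 0 as significant. It marks few rows of any kind, 302 of all 39248.

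**Figure D5:**
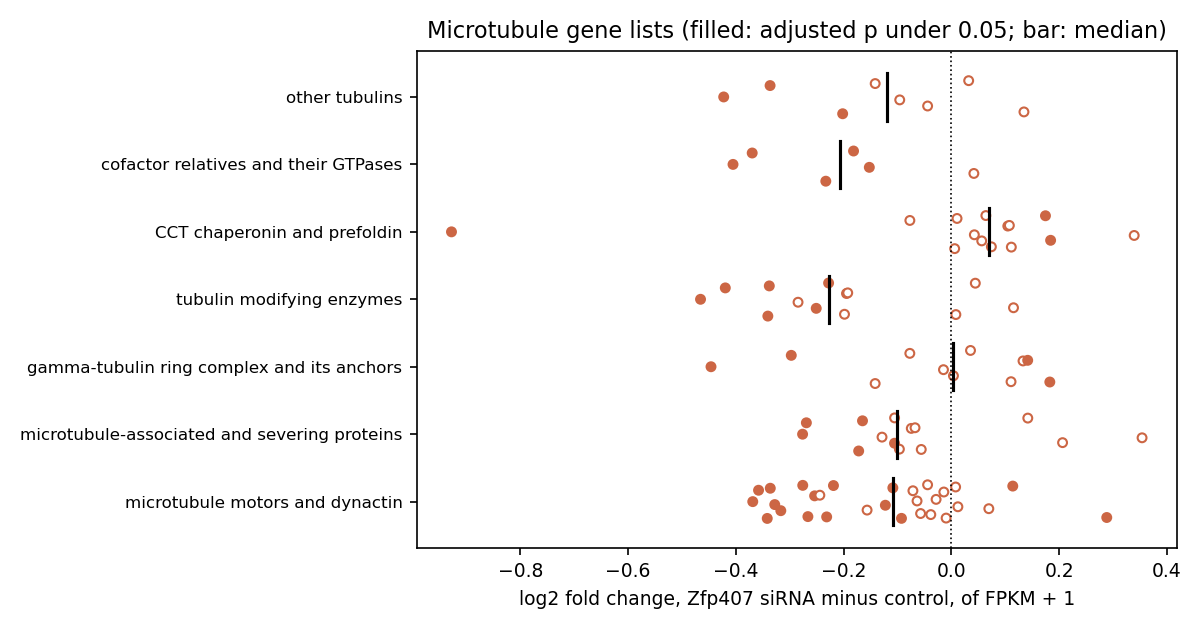
Log2 fold change of FPKM + 1, Zfp407 siRNA minus control, for the 95 genes tested in 7 microtubule lists (1 point per gene, filled where limma's adjusted p was under 0.05, bar at the list's median). Medians run from -0.23 for tubulin modifying enzymes to 0.07 for CCT and prefoldin, and Pdcl stands apart at -0.93.

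Within the arms, the 10 genes varied together to very different degrees. After each arm was centred on its own mean, the log2 levels of the alpha tubulins had Pearson's r of 0.87 (Tuba1a and Tuba1b), 0.90 (Tuba1b and Tuba1c) and 0.91 (Tuba1a and Tuba1c) over the 12 libraries. These rows share sequence as well as library and depth. The lowest r was -0.46, between Tbca and Tubb5. Tbcd had r of 0.74 with Tuba1b, 0.71 with Tuba1c, 0.60 with Tbcc, 0.58 with Tbcb, 0.56 with Tuba1a and 0.53 with Tubb5, and r of 0.04 with Tubb2a, -0.02 with Tbca and -0.05 with Tbce. Whether these values exceed the usual r of Tbcd with other rows was not tested. Across 9558 protein-coding rows, those most like Tbcd by this measure were Pknox2 (r = 0.95), Ehd3 (0.92), Surf4 (0.89), Prcc (0.89) and Kifap3 (0.88). They were picked as the highest of many rows over 12 libraries, and their r was not tested. Of these 5, Kifap3, the kinesin-2 adaptor, was also in the motor list and fell by 0.33 on the log2 scale (limma adjusted p = 0.000298). Prcc had a log2 fold change of 0.22, and those of Pknox2, Ehd3 and Surf4 lay between -0.10 and 0.01.

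Several facts of the whole series bear on these values. Zfp407, the targeted gene, went from 2.83 ± 0.178 to 1.79 ± 0.208 FPKM (SD, n = 6 each), 36.9% lower, a log2 fold change of -0.46 (limma adjusted p = 8.00e-05), and its q-value in the authors' deposited table was 0.0734. Slc2a4, the gene of GLUT4, went from 102.9 ± 2.77 to 88.5 ± 8.19 FPKM (SD, n = 6 each), a log2 fold change of -0.22 (limma adjusted p = 0.00853), with a q-value of 0.99999 in the authors' deposited table. Adipocyte markers were high in every library, with summed levels of 15203 to 19008 FPKM in control and 14455 to 18817 FPKM in knockdown libraries over 8 genes, of which 3 fell and 1 rose. The 3 macrophage markers were below 0.5 FPKM in every library, and Emr1 was listed at 0. Of 8 preadipocyte or fibroblast markers, 2 fell (sums 2470 to 2749 and 1953 to 2567 FPKM), and 1 of 4 myofibroblast markers fell (43.3 to 55.3 and 43.0 to 68.0 FPKM). Of 4 markers of cycling cells, 2 rose (sums 30.8 to 39.0 and 36.9 to 48.1 FPKM), and their part in the results above was not tested. These marker counts stand beside 24.8% lower and 11.6% higher of all rows. The marker sums rest mostly on their highest genes and can hide changes of single markers. Knockdown library 6, which was lowest for Tbcd, Tuba1a, Tuba1b, Tuba1c, Tubb5, Tubb2a and Tubb4b, had 32.8% of summed FPKM on the mitochondrial chromosome, against 19.4% to 26.3% in the other 11 libraries. Without it, Tbcb stayed called and the other 8 genes stayed uncalled.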

How the data were processed

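RNA of 12 samples was sequenced. The deposited table gives FPKM per gene and library as the authors estimated them. Tools named per the submitters' processing notes, in no order, are Cufflinks 2.0.2, SAMtools 0.1.18.0, TopHat2 2.0.5 and Bowtie2 2.0.0.7. The sources used here name no build and no gene models. Of 18533 protein-coding rows, 99.5% overlapped the gene of that name in GENCODE M21 (GRCm38), which supplied coordinates and sequences. Per the file headers, the authors also deposited log2 fold changes, p-values and q-values.

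Log2(FPKM + 1) was fitted with limma 3.58.1 in R 4.3.3 (trended eBayes, 6 against 6 libraries, two-sided, Benjamini-Hochberg over the 14706 rows with a mean of at least 1 FPKM, threshold 0.05), after the script was tested on simulated data. FPKM holds no read totals, so depth is unknown, and no counting interval is given. Summed FPKM ran from 2772930 to 3748490. Members and lists were chosen with earlier results of these data known. Named by rule were, per list, up to 2 genes past the threshold in each direction, and the 5 rows most like Tbcd. Tubg1, Tubb2b, Tubb6, Tuba4a, Tbcel, Tbccd1, Arl2bp, Arl3, Ttc5 and the genes sharing the loci of Tbcb and Tbce were named after their values were seen. The 20 alternatives changed the pseudocount, filter, scaling, minimum fold or replicate block, or left out each library.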

Additional observations from a re-analysis of the deposited data

Results flagged for a closer look

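In each arm, the highest and lowest library of each of the 10 genes was compared with the others by Dixon's rule for groups of 6, which chance alone meets in about 1 of 20 groups. Of 20 groups, 3 met it. Tbcd read 19.9 FPKM in control library 2, below the 21.7 to 22.5 FPKM of the other control libraries and still far above the knockdown arm. Tuba1c read 65.7 FPKM in knockdown library 6, against 74.0 to 77.4 FPKM in the other knockdown libraries. Tubb5 read 187.8 FPKM in control library 3, against 166 to 170.05 FPKM in the other control libraries.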

How the results depend on the processing

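Over the 20 alternatives, the log2 fold change of Tbcd ran from -1.52 to -1.09, the weakest value with a pseudocount of 5. The number of rows called fell from 5360 to 856 against a minimum fold of 1.2, which asks for more than a difference from 0. Among the 9 other genes, 1 was called in the analysis reported, 2 after quantile normalization (Tbca joined Tbcb), 0 against the minimum fold and 3 with the replicate block (Tbca and Tbce joined), and between 1 and 2 when 1 library was left out (Tubb2a joined without knockdown library 1 or 2). Signs turned for Tbcc (0.0168 centred on the median, 0.0043 quantile normalized) and Tuba1b (0.0178 in both, and from -0.036 to 0.0102 when 1 library was left out). The causes were not tested. Same-numbered libraries of the arms deviated together with correlations from -0.049 to 0.145, and 3 of 6 correlated best with their own number, so the numbers were not taken to pair the libraries. The replicate block called 5700 rows. Summing rows that share a name gave nothing to compute, since each of the 10 genes had 1 row. The difference between arms in what 1 read is worth (90th percentile 0.25 on the log2 scale) was measured in 877 rows of low level and was not measured in the 10 genes.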
